A study of Mus musculus with 9 samples.

Results

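Ribosome-bound transcripts of the MHC class I presentation pathway and of the immunoproteasome were followed across 3 mouse adipose depots. The 10 genes are a list of symbols: the light chain B2m, the heavy chains H2-K1 and H2-D1, the peptide transporter subunits Tap1 and Tap2, tapasin (Tapbp), the immunoproteasome subunits Psmb8, Psmb9 and Psmb10, and the regulator Nlrc5. All 10 were found among the 22527 symbols of the table, each on a single line. Of these, 9 passed the filter on low values (at least 1 FPKM in at least 3 libraries) and Nlrc5 did not. FPKM is the number of fragments scaled to the length of the transcript and to the mapped reads of the library, so levels of different genes can be set side by side.

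The study prepared 3 libraries from each depot: brown fat (BAT), the inguinal white depot under the skin (iWAT), and the epididymal white depot of the visceral cavity (eWAT). The mice of all 3 groups were C57BL/6, aged 8 weeks, listed as wild type, and given no treatment that the labels name. Ribosomes were pulled down with an antibody against GFP, and the title speaks of adipocytes, but neither the allele that carries the tag nor the promoter that drives it is given. Nothing says that replicates are separate animals, so p-values measure only the spread between these libraries, which may be technical. In pulled-down tissue RNA, fewer cells of a type and less RNA per cell cannot be told apart.

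Nearly all nucleated cells show peptides of their own proteins on MHC class I molecules, which CD8 T cells and NK cells read. The proteasome cuts proteins, the TAP transporter carries the peptides into the endoplasmic reticulum, tapasin holds empty class I molecules at the transporter, and the heavy chain leaves for the surface together with beta-2 microglobulin. Interferons raise most of these genes, so that immunosubunits take the place of the constitutive catalytic subunits in new proteasomes, and Nlrc5 is a transactivator of class I genes. Adipocytes are known to express class I molecules.

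In the GENCODE vM1 annotation on build mm9, 4 of the genes stand side by side on chromosome 17: Psmb9 (34318932 to 34324697, minus strand), Tap1 (34324498 to 34334170, plus), Psmb8 (34334666 to 34338399, plus) and Tap2 (34340472 to 34353266, plus). On the same chromosome lie Tapbp (34052844 to 34066235), H2-K1 (34132962 to 34137278) and H2-D1 (35399675 to 35404444). B2m lies on chromosome 2 (121973422 to 121978819), and Psmb10 (108459628 to 108462292) and Nlrc5 (96996663 to 97051172) lie on chromosome 8. All are annotated as protein-coding except Nlrc5, which that release lists as a lincRNA. Other annotated genes overlap some of them: Psmb9 and Tap1 overlap each other, Gm20496 overlaps Psmb8 and Tap2, Gm15821 Tap2, Zbtb22 Tapbp, Gm16156 Psmb10 and Patl2 B2m. Reads there may belong to either gene. Zbtb22 and Tapbp lie on the same strand, and for the other overlaps, between opposite strands, the strand setting of the counting is not given.

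The bases before the transcription start are shown for 2 pairs of genes whose levels ran together over the libraries, as given below. They are from RefSeq on build GRCm38.p6, whose coordinates differ from those of mm9. H2-K1 is at chr17:34000348-34000473 (minus strand), H2-D1 at chr17:35262908-35263060 (plus strand), and the 225 bases between the starts of Psmb9 and Tap1, which are read in opposite directions, at chr17:34187331-34187555 (plus strand). Capitals mark the kappa B motif GGGGATTCC, the core of the interferon-stimulated response element (GAANNGAAA, here as TTTCNNTTC on the other strand) and the CCAAT box.
H2-K1: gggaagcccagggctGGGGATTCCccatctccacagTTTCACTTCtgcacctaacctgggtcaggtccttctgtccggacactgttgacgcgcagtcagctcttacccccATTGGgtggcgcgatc
H2-D1: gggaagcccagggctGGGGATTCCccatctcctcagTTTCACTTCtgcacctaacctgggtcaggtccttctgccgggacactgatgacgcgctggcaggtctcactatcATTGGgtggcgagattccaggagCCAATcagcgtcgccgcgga
Tap1 and Psmb9: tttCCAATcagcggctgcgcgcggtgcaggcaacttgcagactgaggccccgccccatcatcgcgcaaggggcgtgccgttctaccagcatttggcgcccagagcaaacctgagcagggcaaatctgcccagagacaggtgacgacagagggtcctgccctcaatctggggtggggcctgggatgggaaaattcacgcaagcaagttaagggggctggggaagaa

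Aligned to each other, the H2-K1 and H2-D1 windows had 114 identical bases and 12 mismatches, with 27 gaps because the windows differ in length. RefSeq promoters were matched for 8 of the 10 genes, and motifs were searched on both strands in the 250 bases before each start. The response element core was found in H2-K1 and H2-D1 and in 6.31% of all 32851 promoters, and the kappa B motif in the same pair and in 0.213% of all. A gamma-activated site, TTCNNNGAA, was found in Psmb8 and in 7.02% of all. The CCAAT box was found in 6 of the 8 (B2m, H2-D1, H2-K1, Psmb9, Tap1 and Tapbp) and in 33.85% of all. The match of Psmb9 and that of Tap1 are the same bases, read on opposite strands. A gene was counted if any of its starts had a match, whereas the percentages count each start. The motif letters were chosen after the sequences were seen, no 2 of the motifs share bases in these windows, and a match describes letters only.

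Before the results, 3 features of the libraries need stating. BAT 3 is brown fat by its title and source, but its tissue entry reads inguinal. The brown fat marker Ucp1, a mitochondrial uncoupling protein, had FPKM values of 2626, 2434 and 3054 in BAT 1, 2 and 3 and of at most 3.38 in any white library. Across the tested genes, iWAT 1 correlated at 0.945 to 0.963 with the eWAT libraries and at 0.899 and 0.934 with iWAT 2 and 3. The estimated depth was 11.1 to 21.3 M reads in BAT, 2.91 to 4.66 M in iWAT, 16.0 M in eWAT 1 and 4.46 and 4.53 M in eWAT 2 and 3, so depth and depot cannot be told apart between BAT and iWAT. The median log2 difference over all tested genes was 0.23 for BAT minus iWAT, -0.02 for BAT minus eWAT and -0.18 for iWAT minus eWAT.

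BAT was compared with iWAT and with eWAT, and the white depots with each other, to ask how class I presentation transcripts differ between depots. BAT had the lowest mean level of 9 of the 10 genes, Tapbp being the exception. H2-K1, H2-D1, Tap1, Tap2, Psmb8 and Psmb9 had lower levels in BAT than in iWAT, and H2-K1 and H2-D1 also had lower levels in BAT than in eWAT. None of the 9 tested genes was called between iWAT and eWAT.

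**Figure D1:**
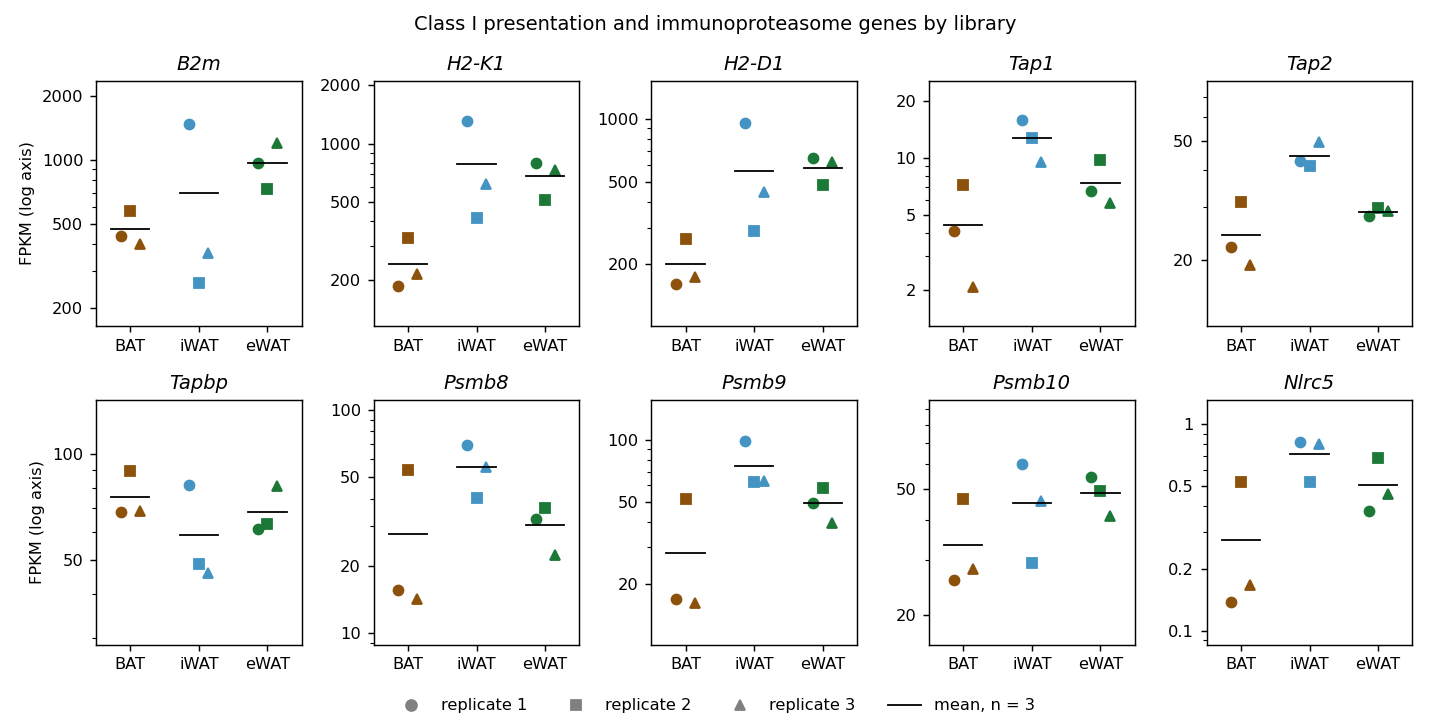
Level of each of the 10 genes in the 9 libraries, in FPKM on a log axis, by depot; points are single libraries (shape gives the replicate) and lines are means of 3 libraries. The 3 BAT libraries lie below all 3 iWAT libraries for H2-K1, H2-D1, Tap1, Tap2, Psmb9 and Nlrc5, and BAT 2 is the highest BAT library in every panel.

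The heavy chains carry the peptide-binding groove. H2-K1 had FPKM values of 185, 326 and 213 in BAT 1, 2 and 3, 1317, 416 and 621 in iWAT 1, 2 and 3, and 796, 515 and 738 in eWAT 1, 2 and 3. H2-D1 had FPKM values of 162, 265 and 174 in BAT, 951, 291 and 445 in iWAT, and 648, 481 and 619.9 in eWAT, in the same library order. For both heavy chains every BAT library lay below every white library, and iWAT 1 was the highest library of all. The log2 difference of H2-K1 was -1.57 (SE 0.40, limma adjusted p = 0.00802) for BAT minus iWAT and -1.51 (SE 0.40, adjusted p = 0.0157) for BAT minus eWAT. That of H2-D1 was -1.34 (SE 0.39, limma adjusted p = 0.0149) and -1.56 (SE 0.39, adjusted p = 0.0121). Between iWAT and eWAT the 95% intervals of the log2 difference ran from -0.84 to 0.95 for H2-K1 and from -1.09 to 0.66 for H2-D1.

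The 2 heavy chains followed each other at a Pearson correlation of 0.989 over the 9 libraries, the closest pair among the 9 tested genes. Their transcripts share sequence: 8.87% of the 50-base windows of the longest H2-K1 transcript and 14.3% of those of H2-D1 also occur in other genes, H2-Q2 among them. H2-D1 is itself among the genes that share windows with H2-K1. How reads that fit several genes were divided is not given in the sources used here, so each heavy chain's level, and their correlation, is uncertain to that extent.

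B2m encodes beta-2 microglobulin, the invariant light chain that every classical class I molecule needs. It had FPKM values of 438, 571 and 399 in BAT, 1470.2, 263 and 363 in iWAT, and 969, 731 and 1199 in eWAT. All 3 BAT libraries lay below all 3 eWAT libraries, whereas in iWAT a single library was the highest of the 9 and the other two were below every BAT library. The log2 difference was -1.03 (SE 0.53, limma adjusted p = 0.154) for BAT minus eWAT, -0.16 (SE 0.53, adjusted p = 0.803) for BAT minus iWAT and -0.86 (SE 0.53, adjusted p = 0.286) for iWAT minus eWAT. Without iWAT 1, B2m was called lower in iWAT than in eWAT (-1.61, limma adjusted p = 0.00337) and lower in BAT than in eWAT (-1.03, adjusted p = 0.00728).

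Tap1 and Tap2 form the heterodimeric peptide pump of the endoplasmic reticulum. Tap1 had FPKM values of 4.09, 7.14 and 2.06 in BAT, 15.9, 12.8 and 9.54 in iWAT, and 6.67, 9.75 and 5.76 in eWAT. Tap2 had FPKM values of 22.1, 31.4 and 19.2 in BAT, 42.8, 41.3 and 49.6 in iWAT, and 28.1, 29.9 and 29.1 in eWAT. For each subunit all BAT libraries lay below all iWAT libraries and overlapped with eWAT, and every library held more Tap2 than Tap1 per length of transcript. The log2 difference for BAT minus iWAT was -1.43 (SE 0.36, limma adjusted p = 0.00726) for Tap1 and -0.88 (SE 0.23, adjusted p = 0.0082) for Tap2. For BAT minus eWAT it was -0.71 (SE 0.36, limma adjusted p = 0.145) for Tap1 and -0.28 (SE 0.23, adjusted p = 0.352) for Tap2. Tap2 was also above eWAT in all 3 iWAT libraries, the log2 difference being 0.60 (SE 0.23, unadjusted p = 0.0239, limma adjusted p = 0.146).

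Tapasin, the bridge between TAP and the empty heavy chain, did not follow most of the other genes. Tapbp had FPKM values of 68.5, 89.4 and 68.8 in BAT, 81.4, 48.6 and 45.8 in iWAT, and 61.2, 63.1 and 80.8 in eWAT. The depots overlapped in all 3 comparisons. Its log2 difference was 0.40 (SE 0.27, limma adjusted p = 0.216) for BAT minus iWAT and 0.14 (SE 0.27, adjusted p = 0.699) for BAT minus eWAT. Over the 9 libraries Tapbp correlated at 0.16 with the mean profile of the 9 tested genes (itself included), whereas the other 8 correlated at 0.67 to 0.93. Its highest correlation with a single one of them was 0.632, with B2m. Without iWAT 1 it was called higher in BAT than in iWAT (0.66, limma adjusted p = 0.0175).

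Psmb8, Psmb9 and Psmb10 encode the 3 catalytic immunosubunits LMP7, LMP2 and MECL-1. Psmb8 had FPKM values of 15.6, 53.7 and 14.2 in BAT, 69.5, 40.3 and 55.6 in iWAT, and 32.5, 36.4 and 22.3 in eWAT. Psmb9 had FPKM values of 16.9, 51.3 and 16.2 in BAT, 98.2, 62.2 and 63.3 in iWAT, and 49.4, 58.5 and 39.3 in eWAT. In both, BAT 1 and BAT 3 were below every white library and BAT 2 lay within the range of eWAT or above it, while all iWAT libraries were above all eWAT libraries. Psmb10 had FPKM values of 25.9, 46.7 and 27.9 in BAT, 60.1, 29.3 and 46.1 in iWAT, and 54.7, 49.6 and 41.3 in eWAT, with overlap in every comparison.

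The log2 difference for BAT minus iWAT was -1.55 (SE 0.41, limma adjusted p = 0.00914) for Psmb9 and -1.19 (SE 0.45, adjusted p = 0.0437) for Psmb8. Psmb10 stood at -0.41 (SE 0.31, limma adjusted p = 0.275). The Psmb8 call was lost without BAT 1, BAT 3, iWAT 1, iWAT 3, eWAT 2 or eWAT 3 (limma adjusted p from 0.0515 to 0.164), with log2 differences of -0.86 to -1.19. Without eWAT 2 or eWAT 3 the difference itself stayed at -1.19. For BAT minus eWAT, Psmb9 was at -0.97 (SE 0.41, limma adjusted p = 0.0903), Psmb10 at -0.56 (SE 0.31, adjusted p = 0.182) and Psmb8 at -0.36 (SE 0.45, adjusted p = 0.556). Without BAT 2, Psmb9 was called lower in BAT than in eWAT (-1.50, limma adjusted p = 0.00712). For iWAT minus eWAT, Psmb8 was at 0.83 (SE 0.45, limma adjusted p = 0.246) and Psmb9 at 0.58 (SE 0.41, adjusted p = 0.338).

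Nlrc5 was read at low levels: 0.137, 0.522 and 0.166 FPKM in BAT, 0.822, 0.525 and 0.800 FPKM in iWAT, and 0.379, 0.684 and 0.460 FPKM in eWAT. BAT 1 and BAT 3 were the lowest libraries, and all iWAT libraries were above all BAT libraries, though BAT 2 (0.5218 FPKM) and iWAT 2 (0.5253 FPKM) were nearly level. No library reached 1 FPKM, so Nlrc5 took no part in the fit reported. In the fit with no filter, over 19409 genes, its log2 difference for BAT minus iWAT was -0.44 (SE 0.15, limma adjusted p = 0.0652).

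**Figure D2:**
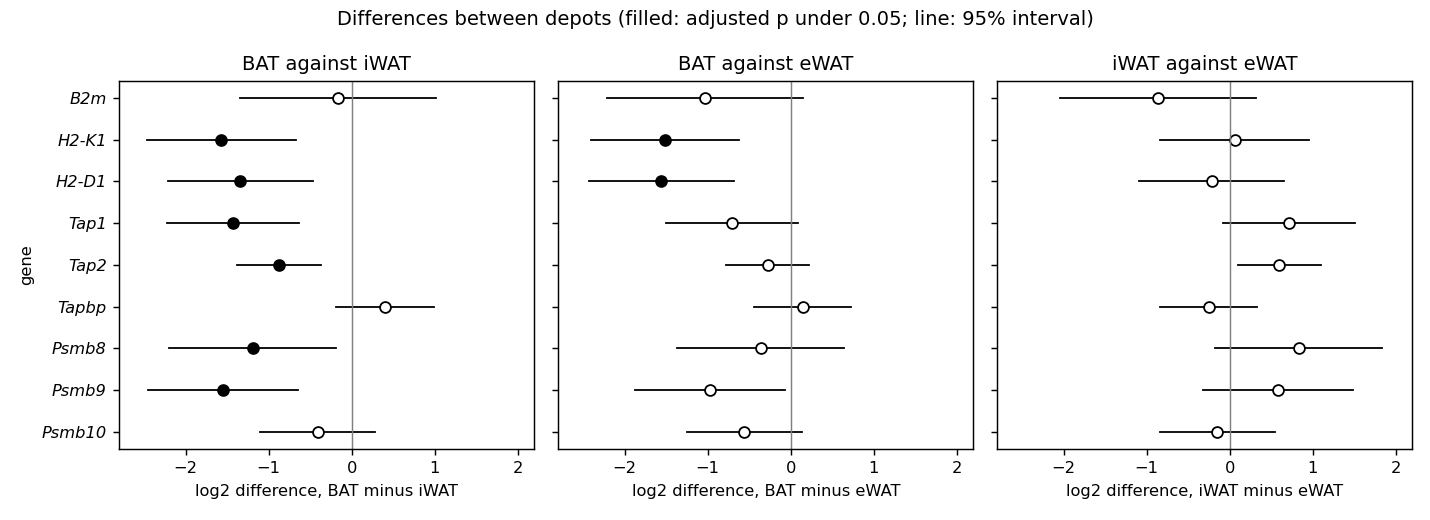
Log2 difference of the 9 tested genes in the 3 comparisons of depots; points are limma estimates on log2(FPKM + 1), lines are 95% intervals, and filled points have an adjusted p under 0.05. For BAT against iWAT 6 points are filled, all below 0, for BAT against eWAT 2 are, and for iWAT against eWAT none is.

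Counted over the pathway, 6 of the 9 tested genes were called lower in BAT than in iWAT and none higher, where 22.9% of all 10374 tested genes were called lower and 34.5% higher. The groups did not overlap, with BAT lower, for 5 of the 9 (27.2% of all tested genes). The median log2 difference of the 9 genes was -1.19. Against eWAT, 2 of the 9 were called lower in BAT and none higher (13.5% of all tested genes lower, 20.2% higher), 3 did not overlap with BAT lower (22.7% of all), and the median was -0.71. These 2 comparisons share the BAT libraries.

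Between iWAT and eWAT, limma called none of the 9 (1.5% of all tested genes lower in iWAT, 0.231% higher), and 1 had an unadjusted p under 0.05, against 26.1% of all tested genes. Psmb8, Psmb9 and Tap2 lay higher in all iWAT libraries than in all eWAT libraries, a state found in 3.1% of all tested genes. The median log2 difference of the 9 was 0.06. Among the alternatives, 2 called a member here, B2m in each. These were array weights (1891 of 10374 tested genes called lower in iWAT) and leaving out iWAT 1 (2859 of 10277).

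Some calls were lost when a single library was left out. Without BAT 3, whose labels disagree, 4 of the 9 were called lower than in iWAT (H2-D1 and Psmb8 were lost) and 0 lower than in eWAT, where the log2 difference was -1.45 for H2-K1 (limma adjusted p = 0.059) and -1.48 for H2-D1 (adjusted p = 0.0504). Against iWAT, H2-D1 then stood at -1.26 (limma adjusted p = 0.0517) and Psmb8 at -0.86 (adjusted p = 0.164). Without BAT 1 the counts were likewise 4 and 0. Over all tested genes without BAT 3, 1706 of 10134 were called lower in BAT than in iWAT and 784 lower than in eWAT. Without BAT 1 these were 1983 and 938 of 10090. Without eWAT 3 the H2-K1 call against eWAT was lost (-1.45, limma adjusted p = 0.0543). Without iWAT 1, 5 of the 9 were called lower than in iWAT (2639 of all 10277 tested genes), and without BAT 2, 6 were (1578 of all 10125).

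Within the 4 libraries above 10 M reads (BAT and eWAT 1), the log2 difference for BAT minus eWAT was -1.76 for H2-K1, -1.73 for H2-D1 and -1.06 for B2m. The median was -0.74 over the 9 genes and 0.24 over all 8937 genes tested there. Here eWAT is represented by a single library, whose spread cannot be estimated, so only the size of the differences is given. Within the 5 shallower libraries (iWAT, eWAT 2 and eWAT 3), none of the 9 was called between the white depots by limma, and 10 of all genes were. No such comparison could be had for BAT against iWAT.

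The catalytic immunosubunits replace Psmb5, Psmb6 and Psmb7 when proteasomes are assembled, so each was set against its counterpart in the same library. Over the 9 libraries Psmb5 ranged from 201 to 285 FPKM and Psmb7 from 214 to 313 FPKM. Psmb6 had FPKM values of 153.5, 178 and 169 in BAT, 145, 112 and 135 in iWAT, and 221, 195 and 187 in eWAT, so that the depots did not overlap and iWAT was lowest. None of the 3 was called in any comparison, Psmb6 standing at -0.62 (SE 0.20, unadjusted p = 0.0111, limma adjusted p = 0.111) for iWAT minus eWAT. The ratio of Psmb9 to Psmb6 was 0.110, 0.288 and 0.0958 in BAT, 0.677, 0.555 and 0.470 in iWAT, and 0.223, 0.299 and 0.211 in eWAT. All iWAT libraries were above all others, and BAT 2 lay within the range of eWAT. In iWAT the numerator was the highest of the 3 depots and the denominator the lowest. The depots differed in this ratio (exact permutation test of the between-depot F on the log2 scale over 1680 assignments, p = 0.0107, Benjamini-Hochberg adjusted over the 3 ratios 0.0321; the smallest p possible is 0.0036).

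The ratio of Psmb8 to Psmb5 was 0.0649, 0.188 and 0.0538 in BAT, 0.288, 0.200 and 0.229 in iWAT, and 0.133, 0.154 and 0.0955 in eWAT (exact permutation p = 0.0679, adjusted 0.102). Again iWAT lay above both other depots without overlap, and the BAT libraries were split into 2 low and 1 high. The ratio of Psmb10 to Psmb7 was 0.117 ± 0.050 in BAT, 0.177 ± 0.067 in iWAT and 0.201 ± 0.051 in eWAT (SD, n = 3, exact permutation p = 0.207, adjusted 0.207), with overlap between all depots. The Psmb9 result depended on the libraries: leaving out any single library other than BAT 2 took the adjusted exact permutation p to between 0.0536 and 0.139. Without BAT 2 the adjusted exact permutation p was 0.0054 for both the Psmb9 and the Psmb8 ratio. Each then had the smallest raw p that the remaining libraries allow, so these values cannot rank the 2 ratios.

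**Figure D3:**
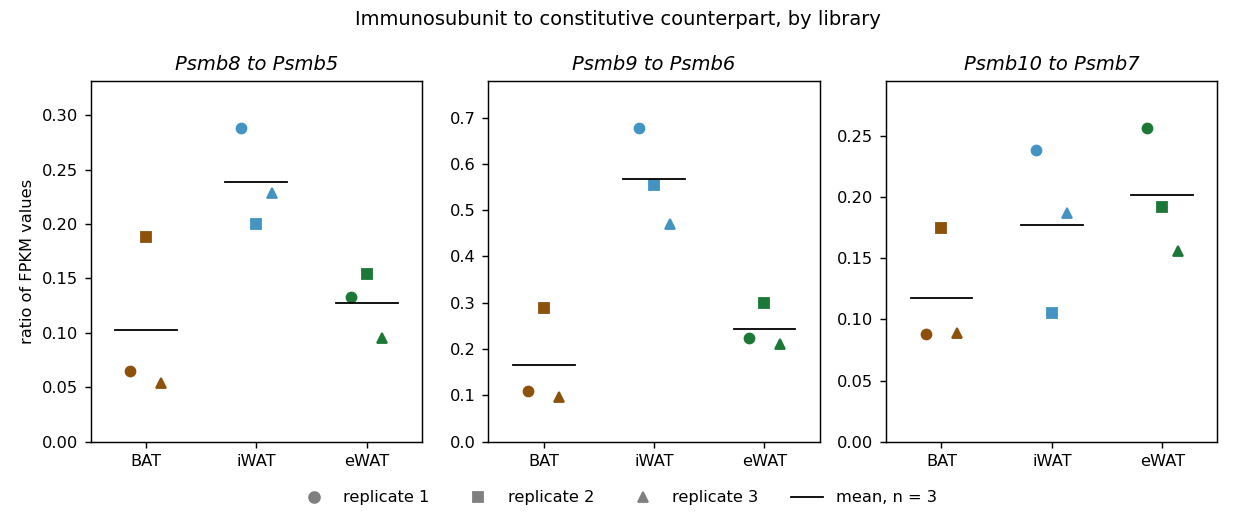
FPKM of each immunosubunit divided by that of its constitutive counterpart in the 9 libraries, by depot (linear axis from 0; shape gives the replicate and lines are means of 3 libraries). The Psmb9 to Psmb6 ratio is 0.470 to 0.677 in iWAT and at most 0.299 elsewhere, and BAT 2 stands above BAT 1 and BAT 3 in all 3 panels.

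Psme1 and Psme2 encode the PA28 activator, which interferon also raises. Psme1 was higher in BAT than in iWAT (125 ± 26.7 against 63.2 ± 13.8 FPKM, SD, n = 3, log2 difference 0.97, SE 0.24, limma adjusted p = 0.00639), the direction opposite to that of Psmb8 and Psmb9. For Psme2 the log2 difference was 0.07, with an SE of 0.23 and a limma adjusted p of 0.802. Of the 8 tested constitutive subunits and regulators, 1 was higher in BAT than in iWAT (Psme1) and 1 lower (34.5% and 22.9% of all tested genes). The lower one was Psme4, the PA200 activator (-1.04, limma adjusted p = 0.0447), the direction of Psmb8 and Psmb9. None of the 8 was called in the other comparisons.

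BAT 2 was the highest of the 3 BAT libraries for each of the 10 genes. Relative to the mean of BAT 1 and BAT 3, its FPKM was 3.61 times as high for Psmb8, 3.45 for Nlrc5, 3.10 for Psmb9 and 2.32 for Tap1, and between 1.30 (Tapbp) and 1.74 (Psmb10) times for the others. Of all tested genes, 26.1% were highest in BAT 2, and their median log2 difference to the other two libraries was -0.07, against 0.72 for the 9 tested genes. BAT 2 was also the deepest library.

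Of the 15 tested genes of other pathways that interferon induces, 12 were highest in BAT 2, with a median log2 difference of 0.72 and a range from -0.18 to 1.87. Bst2 (tetherin), for example, had FPKM values of 89.1 in BAT 2 against 39.5 and 36.6 in BAT 1 and BAT 3. Of the other class I heavy chains 10 of 14 were highest there, of the interferon receptors and signalling genes 8 of 12 and of the adipocyte markers 6 of 8 (median 0.34). The same held for 5 of the 8 constitutive subunits and regulators (median 0.11) and 3 of the 5 peptide loading partners (median 0.02). None of the 4 tested class II presentation genes and 1 of the 9 tested transactivators was. Stromal progenitor (median -1.06) and epithelial markers (-0.63) were lower in BAT 2 than in the other two. The summed macrophage and dendritic markers were 8.03 FPKM in BAT 2 and 4.85 and 4.11 FPKM in the others, of which Cd14 alone gave 6.97, 3.47 and 3.11 FPKM, while the summed leukocyte markers were lowest in BAT 2, at 1.61 FPKM against 2.28 and 2.10 FPKM. The part of these in the BAT 2 values was not tested.

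**Figure D4:**
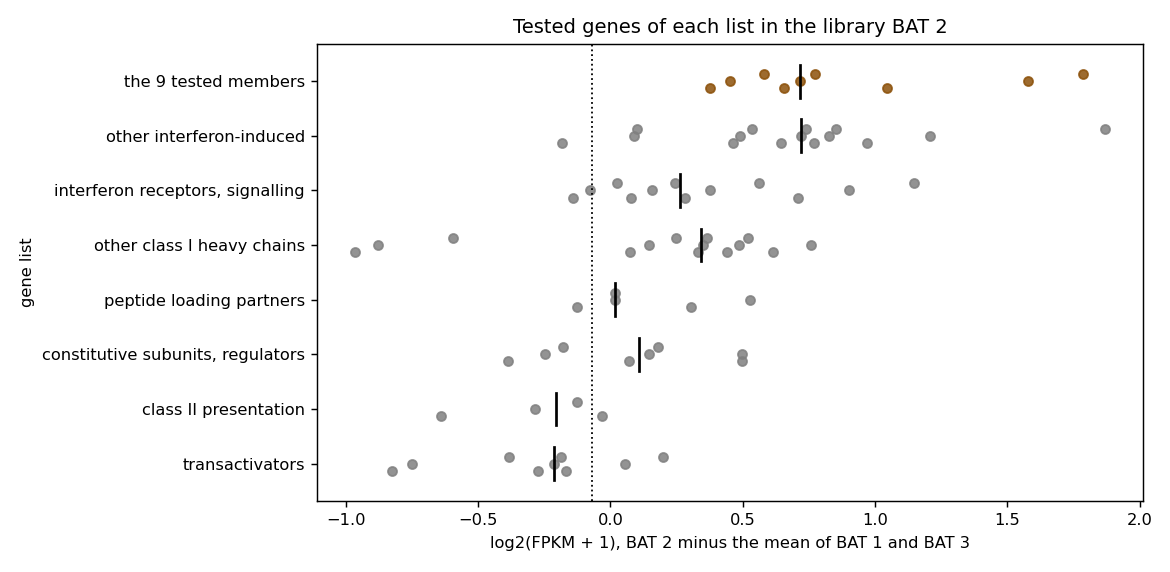
Log2(FPKM + 1) in BAT 2 minus the mean of BAT 1 and BAT 3 for the tested genes of 8 lists; each point is a gene, short vertical lines are list medians, and the dotted line is the median of all 10374 tested genes. The 9 class I presentation genes (top row) all lie above 0, with a median of 0.72.

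In iWAT 1 other members of the pathway stood out. Relative to the mean of iWAT 2 and iWAT 3, its FPKM was 4.70 times as high for B2m, 2.54 for H2-K1 and 2.59 for H2-D1, 1.72 for Tapbp, 0.94 for Tap2 and 1.24 to 1.597 for the other 5. The spread among iWAT libraries was therefore widest for the chains of the class I molecule itself and narrow for Tap2 (44.6 ± 4.42 FPKM, SD, n = 3). Cell type markers also differed among these libraries. In iWAT 1, 2 and 3 the adipokine gene Adipoq had FPKM values of 2169, 456 and 771, and the lipid droplet gene Plin1 of 302, 89.1 and 105. The keratin gene Krt5 had values of 68.3, 188 and 127, and the muscle actin gene Acta1 of 668, 1369 and 953. These 4 were chosen after their values were seen. Adipoq and Plin1 were thus highest and Krt5 and Acta1 lowest in iWAT 1. Of the other muscle markers, Pvalb was also lowest there, whereas Ckm (94.0, 25.3 and 39.5 FPKM), Tnnc2, Tnni2, Tnnt3, Mylpf and Myh4 were highest there. The summed muscle markers were 1975, 2508 and 1816 FPKM in iWAT 1, 2 and 3. The part of any of this in the B2m, H2-K1 and H2-D1 values was not tested.

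The genes outside the pathway whose profile over the 9 libraries was most like the mean of the 9 tested genes included Xaf1 (Pearson correlation 0.94), Pex16 (0.93), Tst (0.93) and Bst2 (0.91). Xaf1 and Bst2 are interferon-induced. The 9 points share their libraries and depths. Within the pathway, Tap1 with Psmb9 (0.944), Psmb8 with Psmb9 (0.936) and Tap1 with Tap2 (0.885) followed each other closely, while B2m and Tap2 did not (0.009).

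Around the core pathway, 14 other class I and class I-like heavy chain genes were tested. Against iWAT, 5 were lower in BAT and 4 higher, where 22.9% of all tested genes were lower and 34.5% higher. Against eWAT these shares were 13.5% and 20.2%, and they stand beside the counts of all lists below. The median log2 difference of the 14 against iWAT was -0.37. H2-T23, which encodes Qa-1, had the largest difference: 2.13, 3.27 and 1.83 FPKM in BAT, 53.1, 19.3 and 30.6 FPKM in iWAT, and 27.1, 28.7 and 37.4 FPKM in eWAT. BAT did not overlap with either white depot, and the log2 difference was -3.28 (SE 0.34) against iWAT and -3.24 (SE 0.34) against eWAT, with limma adjusted p of 5.99e-05 and 6.85e-05. H2-M3 (-3.02), H2-Q7 (-2.62), H2-T3 (-2.51) and H2-T10 (-1.15) were the others lower in BAT than in iWAT. The 4 higher were H2-T22 (2.49), Cd1d1 (1.45), which presents lipids, Hfe (0.91), which acts in iron uptake, and Fcgrt (0.81), the neonatal Fc receptor.

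Against eWAT, 4 of these 14 were lower in BAT (H2-T23, H2-M3 at -2.01, H2-Q2 at -1.05 and H2-T10 at -0.68) and 1 was higher, H2-Q10 (2.56, SE 0.50, limma adjusted p = 0.00303). Many of these genes are near copies of each other, and their levels are uncertain where reads could be divided between them. H2-T22, for instance, was listed at 0.0003 FPKM in iWAT 1 and at 5.77 and 4.48 FPKM in iWAT 2 and 3.

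Of the 5 partners of peptide loading, the chaperones Pdia3 (-0.91, limma adjusted p = 0.00773) and Calr (-0.59, adjusted p = 0.0308) were lower in BAT than in iWAT. Tapbpl, the tapasin-related TAPBPR, was higher (0.78, adjusted p = 0.0392). None was called against eWAT.

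Genes of interferon reception and signalling were called in both directions, as were all tested genes. Against iWAT, BAT was higher for 4 of the 12 tested and lower for 2 (34.5% and 22.9% of all tested genes). The median log2 difference of the 12 was 0.06. Those higher included the receptor chains Ifnar2 (1.76) and Ifnar1 (0.97) and the transcription factor Irf3 (1.42). The kinase Jak1 (-0.61) and the feedback inhibitor Socs1 (-1.41) were lower. Irf1, which is known to activate class I and immunoproteasome genes, was at 6.28, 9.46 and 3.30 FPKM in BAT, 17.7, 13.6 and 8.58 FPKM in iWAT and 6.17, 14.4 and 7.57 FPKM in eWAT, and its difference on the log2 scale was -1.002 (SE 0.40, limma adjusted p = 0.0528) for BAT minus iWAT. Against eWAT, Ifnar2 (1.29) was higher in BAT and Ifngr1 (-1.62), Socs1 (-1.65) and Jak1 (-0.74) were lower.

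Of the 15 other interferon-induced genes tested, iWAT exceeded BAT for 6 and BAT exceeded iWAT for 1 (22.9% and 34.5% of all tested genes). The median log2 difference of the 15 was -0.23. Irf7 (-1.51), Isg15 (-1.35) and Ifit3 (-1.23) had the largest differences among those lower, and the GTPase Gbp3 (1.17) was the one higher. Against eWAT 4 were lower and 1 higher, Gbp3 again (1.32). Among the 4 tested class II presentation genes, H2-Eb1 was higher in BAT than in iWAT (0.99) and than in eWAT (1.11), and none was lower. Of 9 transactivators of class I promoters, Nfyb (-1.29) and Creb1 (-1.04) were lower and Rfxank (1.12) was higher in BAT than in iWAT, and Rfxank (1.09) was higher than in eWAT. None of the genes in these 7 lists was called between iWAT and eWAT by limma.

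Markers of several other cell types summed to less in BAT. Summed over 8 leukocyte markers, the level was 1.61 to 2.28 FPKM in BAT, 8.64 to 20.0 FPKM in iWAT and 6.46 to 8.01 FPKM in eWAT. Coro1a was the largest part of it in iWAT (6.95, 10.6 and 5.61 FPKM). Only Coro1a and Laptm5 passed the filter. Both were called lower in BAT than in iWAT, and Coro1a alone lower than in eWAT. Of the untested ones, Cd53 was listed at 0 in all iWAT libraries and at 0.0905 FPKM in BAT 3. The pan-leukocyte gene Ptprc was at most at 0.237 FPKM and was listed at 0 in BAT 1 and BAT 3. The 11 macrophage and dendritic markers summed to 4.11 to 8.03, 5.09 to 14.2 and 8.43 to 13.01 FPKM, the 8 endothelial ones to 2.93 to 4.37, 1.61 to 6.69 and 2.90 to 7.18 FPKM, in BAT, iWAT and eWAT, with overlap between BAT and iWAT in both. The 10 T and NK cell markers summed to at most 1.503 FPKM in any library, with Cd4 at 0 in all, the 4 B cell markers to at most 2.39 FPKM and the 4 mesothelial markers to at most 2.17 FPKM, and none of these was high enough to be tested.

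Larger differences were seen in the sums of the 6 stromal progenitor markers (3.17 to 16.4 FPKM in BAT, 78.8 to 346 in iWAT, 59.2 to 165 in eWAT) and the 8 epithelial ones (18.9 to 39.8, 131 to 362 and 52.9 to 179 FPKM). The stromal sum was nearly all Dpt in iWAT (339, 75.4 and 204 FPKM) and mostly Dpt and Dcn in eWAT. Only these 2 stromal markers were tested, and Dcn was not called for BAT against iWAT (-0.82, limma adjusted p = 0.162). The epithelial sum was nearly all Krt5 and Krt14 in every library. The 8 skeletal muscle markers summed to 60.6 to 149.7 FPKM in BAT, 1816 to 2508 in iWAT and 227 to 1300.1 in eWAT. Acta1 alone gave nearly all of this sum in BAT (148, 58.4 and 91.6 FPKM) and in eWAT 1 (225 FPKM). The 8 adipocyte markers, which check the labelled cell type, summed to 24653 to 29973 FPKM in BAT, 33265 to 52794 in iWAT and 48752 to 67299.8 in eWAT, a sum made up mostly of Fabp4 (21769 FPKM or more in every library). The adipocyte sum, too, was lowest in BAT, without overlap. Singly, Plin1 (1.59) and Pparg (1.58) had higher levels in BAT than in iWAT and Retn (-4.00) a lower one, with a median of 0.02 over the 8. The part of other cells in the lower class I levels of BAT was not tested.

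**Figure D5:**
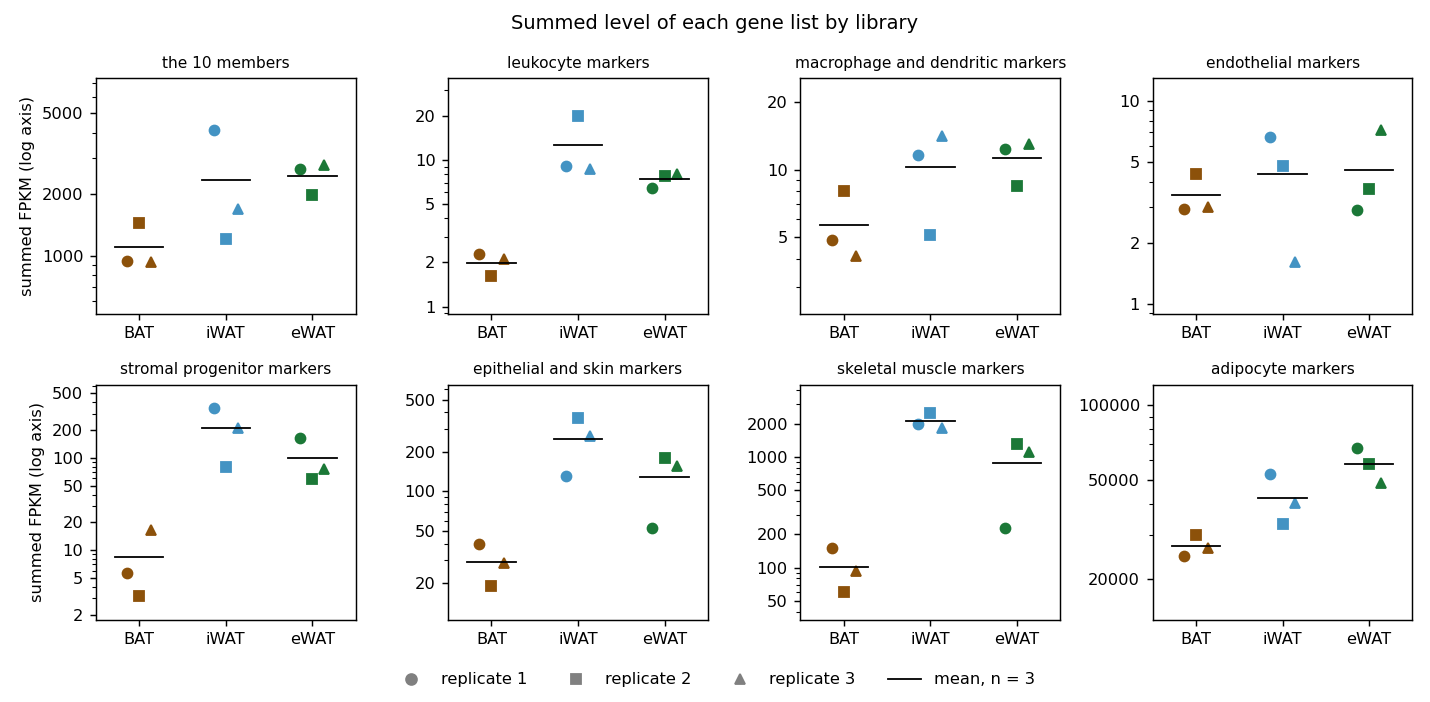
Summed FPKM (log axis) of the 10 class I presentation genes and of 7 lists of cell type markers in the 9 libraries, by depot; shape gives the replicate and lines are means of 3 libraries. The 10 genes sum to 934 to 1442 FPKM in BAT, 1204 to 4108 FPKM in iWAT and 1975 to 2777 FPKM in eWAT. The leukocyte, stromal, epithelial, muscle and adipocyte sums are also lowest in BAT.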

How the data were processed

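One table of 9 libraries was used, with every column matched to a library by its title and groups taken from the titles. It holds FPKM, deposited by the authors: reads were processed with TopHat and Cufflinks against build mm9, per the submitters' processing notes, with versions, annotation and strand settings not given in the sources used here. The header names no unit, and FPKM was read from the naming of Cufflinks and from fractional values with unequal sums. Of the lines of a repeated symbol (259 of 22527), that of highest mean entered. No total read counts are given, so depth was estimated from single-read steps among low values of genes with 1 transcript of at least 1000 bases, of which 44.6% to 63.7% lay near whole reads.

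Values were analysed as log2(FPKM + 1), which understates the change of low genes, with limma 3.58.1 in R 4.3.3 (intensity trend, 9 libraries in 1 fit, 6 residual degrees of freedom). The filter, 1 FPKM or more in 3 or more libraries, left 10374 genes, over which p-values were adjusted by Benjamini-Hochberg, with calls at 0.05. The 3 subunit ratios were compared by an exact permutation test in Python 3.11.15. Both procedures were tested on simulated data. Promoters are RefSeq's.

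Members and lists were chosen with earlier results of these data known. All members are named, and of each list up to 4 called genes with the largest differences, besides Psmb5, Psmb6, Psmb7, Psme1, Psme2 and Irf1; further genes making up a count of 5 or fewer were named after their values were seen. Some genes that this rule names are not reported here. For same-numbered libraries, deviations from group means had correlations of 0.634, 0.534 and 0.165 in the white depots and of -0.388 to 0.121 for BAT with a white depot. Differently numbered libraries had correlations of -0.576 to 0.228 between the white depots and of -0.314 to 0.374 for BAT with a white depot. The pair numbered 3 in the white depots (0.165) thus did not stand above all of these. By a rule of over 0.1 for every same-numbered pair, the numbers pair the white depots only, a pairing that no label states. Alternatives tried were no filter, a pseudocount of 0.1, a mean of at least 5 FPKM, median-ratio scaling, quantile normalization, the 2 depots alone, array weights, a replicate block, summed lines, each library left out, and libraries of like depth alone.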

Additional observations from a re-analysis of the deposited data

How the results depend on the processing

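Of 504 recomputed log2 differences of the members, 16 lost a call, 11 gained one, 0 changed sign past the threshold and 11 of those not called changed sign. The 6 calls lower in BAT than in iWAT were kept under a pseudocount of 0.1, a mean of at least 5 FPKM, median-ratio scaling, quantile normalization, the replicate block and summed lines. Psmb8 was lost with no filter, with the 2 depots alone and with array weights. The count against eWAT was 4 with array weights, where 3527 of all 10374 tested genes were called lower in BAT. It was 3 with quantile normalization (1546 of 10374) and with the 2 depots alone (1854 of 9729). B2m was the gene gained in both (limma adjusted p = 0.0287 and 0.00729). With a library left out the count was 0 to 3, where 784 to 2217 of all tested genes were called lower. Between iWAT and eWAT the count was 1 with array weights (B2m) and 0 to 1 with a library left out. The replicate block changed no member's call; for Psmb9 to Psmb6 it gave an adjusted p of 0.0833, where the smallest raw p it allows is 0.0278. Quantile normalization gave 0.0643 for that ratio. With a library left out, the adjusted p ran from 0.0054 to 0.139 for Psmb9 to Psmb6 and from 0.0054 to 0.236 for Psmb8 to Psmb5. The ratios were not run within libraries of like depth.

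Over all genes, a mean of at least 5 FPKM (fewer genes tested) gave 3783 calls for BAT against iWAT (5961 in the fit reported), 2244 for BAT against eWAT (3492) and 79 between the white depots (180). Array weights (whose estimation stopped short of its tolerance) gave 6625 for BAT against eWAT and 1970 between the white depots, and leaving out a library gave 2141 to 4422 and 15 to 3315. Between the white depots a pseudocount of 0.1 gave 90, no filter 93, median-ratio scaling 115, the 2 depots alone 45 and the 5 shallower libraries 10; for all of these the cause was not tested. For BAT against iWAT the calls higher and lower were 3583 and 2378 as reported, 3269 and 2686 with median-ratio scaling, and 2936 and 2851 with quantile normalization. Depth limits most what can be said of Nlrc5, Tap1 and the shallow iWAT libraries.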

Other observations

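In these libraries the ratio of heavy chain to light chain transcripts was lowest in BAT for both heavy chains. This ratio was chosen after its values were seen and is given with no test. H2-K1 divided by B2m was 0.422, 0.572 and 0.535 in BAT 1, 2 and 3, 0.896, 1.58 and 1.71 in iWAT 1, 2 and 3, and 0.821, 0.704 and 0.615 in eWAT 1, 2 and 3. The 3 depots did not overlap, with BAT lowest and iWAT highest. H2-D1 divided by B2m was 0.369, 0.464 and 0.438 in BAT, 0.647, 1.11 and 1.22 in iWAT, and 0.669, 0.659 and 0.517 in eWAT, where BAT was lowest and iWAT 1 lay within the range of eWAT. H2-K1 divided by H2-D1 moved less, between 1.07 and 1.43 over the 9 libraries, and was at or above 1.38 only in iWAT.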
